A study of Rattus norvegicus with 23 samples.

Results

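Adhesion G protein-coupled receptors of myeloid cells are described here by 4 of the 5 listed genes, out of 20301 genes in the table. Adgrg1, Adgrg3, Adgre1 and Adgre5 were found in the table by symbol, and no filter on low values was applied to them. The list was chosen by name with measured values of these samples in view.

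The values came from RNA sequencing of brain microglia of Wistar rat pups of both sexes at 7 days of age, isolated 24 h after the operation with magnetic beads against CD11b/c, which bind myeloid cells of the brain in general. The 6 Sham samples were operated without ligation or hypoxia, and no injection is listed for them, whereas the 5 LPS samples received LPS (lipopolysaccharide, a bacterial cell wall component) at 0.1 mg/kg into the peritoneum 4 h before the sham operation. The 6 NaCl/HI and 6 LPS/HI samples received saline or the same LPS dose and then hypoxia-ischaemia (HI), in which the left common carotid artery was ligated and the pups breathed 8% oxygen for 50 min, followed by 5 h at normal body temperature. Each Sham or LPS sample was the entire brain of 1 pup and each HI sample the pooled ipsilateral hemispheres of 2 pups, so HI cannot be told apart from the tissue taken and from pooling. No gene was deleted and all animals were of 1 strain. All values below are log2 values after the regularized logarithm (rlog) of the authors, which draws weakly expressed genes toward their mean and is not scaled by gene length, so levels were compared between groups and not between genes. The library medians lay between 7.75 and 7.82, and depth per sample is unknown because counts were not used here. Of 11 microglial markers, 10 were in the table, and their mean per sample lay between 12.4 and 12.8 in all groups, although Siglech lay at -1.05. Fewer cells of a type and less RNA per cell cannot be told apart in such bulk samples.

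Adhesion G protein-coupled receptors carry a long extracellular part that cuts itself close to the membrane, and the stub left on the membrane-spanning part can act as a tethered agonist. Members of the ADGRE group, with EGF-like repeats, are found mainly on leukocytes. Adgre1 encodes EMR1, the antigen by which mouse macrophages are commonly stained, and Adgre5 encodes CD97, a receptor for the complement regulator CD55. Members of the ADGRG group are more varied. Adgrg1 encodes GPR56, which binds collagen III and transglutaminase and is made by microglia and by neural precursors and glia. Adgrg3 encodes GPR97, a receptor best known from granulocytes.

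The genes Adgrg3 and Adgrg1 follow each other directly among the protein-coding genes of rat chromosome 19 in the RefSeq gene table of build GRCr8. Adgre5 lies elsewhere on chromosome 19 beside the adhesion receptor gene Adgrl1, and Adgre1 lies on chromosome 9. RefSeq promoter windows of GRCr8, from 250 bases before to 50 bases after a gene's start, were matched for all 4 genes. The windows of Adgre1, the tested member whose level differed between groups, and of Adgrg3, whose group mean was highest in LPS/HI, as was that of Adgrg1, are printed to show their letters, with motif matches in capitals.
Adgre1, chr9:2329190-2329489, plus strand: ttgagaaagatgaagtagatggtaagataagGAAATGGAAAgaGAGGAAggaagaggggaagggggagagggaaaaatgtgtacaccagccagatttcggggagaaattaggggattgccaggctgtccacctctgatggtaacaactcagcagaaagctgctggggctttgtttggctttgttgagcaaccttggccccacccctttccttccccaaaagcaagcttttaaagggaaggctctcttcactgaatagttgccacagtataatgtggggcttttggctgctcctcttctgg
Adgrg3, chr19:10007096-10007395, minus strand: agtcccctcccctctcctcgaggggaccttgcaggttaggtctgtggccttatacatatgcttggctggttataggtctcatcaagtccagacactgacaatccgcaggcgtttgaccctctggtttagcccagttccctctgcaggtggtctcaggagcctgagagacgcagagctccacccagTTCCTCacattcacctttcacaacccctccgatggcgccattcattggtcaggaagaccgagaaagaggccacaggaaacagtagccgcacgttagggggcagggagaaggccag
On both strands, 6 motifs were searched: GAGGAA (the core bound by PU.1, a myeloid transcription factor), TGACTCA (AP-1), TGACGTCA (CRE), TATAAA and the ISRE and NF-kB consensus motifs by name. The Adgre1 window held 1 match of GAGGAA at base 44 and 1 of the ISRE at base 32, which overlap no other motif. The Adgrg3 window printed here held 1 match of GAGGAA, on the opposite strand at base 186, and a second start of Adgrg3 had a window with 2 matches. The windows of Adgrg1 and Adgre5 held no match of the 6 motifs. Of 33469 promoters of this length, 27.6% held GAGGAA and 3.92% held the ISRE, so the first is common. A match describes letters and is no evidence of binding.

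The libraries carried running numbers up to 23. For description they were cut after library 12 into 2 series, which the labels do not name as batches. The first series held 3 samples per group and the second 3, or 2 for LPS. The lymphocyte and natural killer cell list stayed between 2.91 and 3.14 in all groups. Of the 10 microglial markers, 5 fell in LPS against Sham, among them P2ry12 and Cx3cr1, where 17.8% of all genes passed.

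Adgre1 was the member, of the 4 that were tested, that rose in LPS against Sham. The Sham values were 13.21, 13.23, 13.24, 13.25, 13.27 and 13.29, a mean of 13.25 ± 0.03 (SD, n = 6). LPS samples read 13.27, 13.41, 13.43, 13.49 and 13.63, with a mean of 13.45 ± 0.13 (SD, n = 5). All 5 lay above the Sham mean, but the lowest, replicate 5, lay within the Sham range.

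The difference was 0.20 (SE 0.06, 95% interval 0.07 to 0.33), or 1.15-fold (limma, adjusted p = 0.0308). A two-sided exact permutation test of this gene alone gave p = 0.00433, where 0.00216 is the smallest the design allows. In each library series the difference was 0.20 and the groups did not overlap. Of all genes, 17.8% passed in this pair, 10.2% as higher in LPS, so 1 of 4 members passing is near the background. The call was lost without Sham replicate 1, 2 or 6 or LPS replicate 1, 2 or 4, with an adjusted p of up to 0.104 in limma, and the value lay between 0.15 and 0.24 over all libraries left out in turn. It was also lost when limma was fitted to these groups alone (adjusted p = 0.0573) and after quantile normalization (adjusted p = 0.0680).

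**Figure D1:**
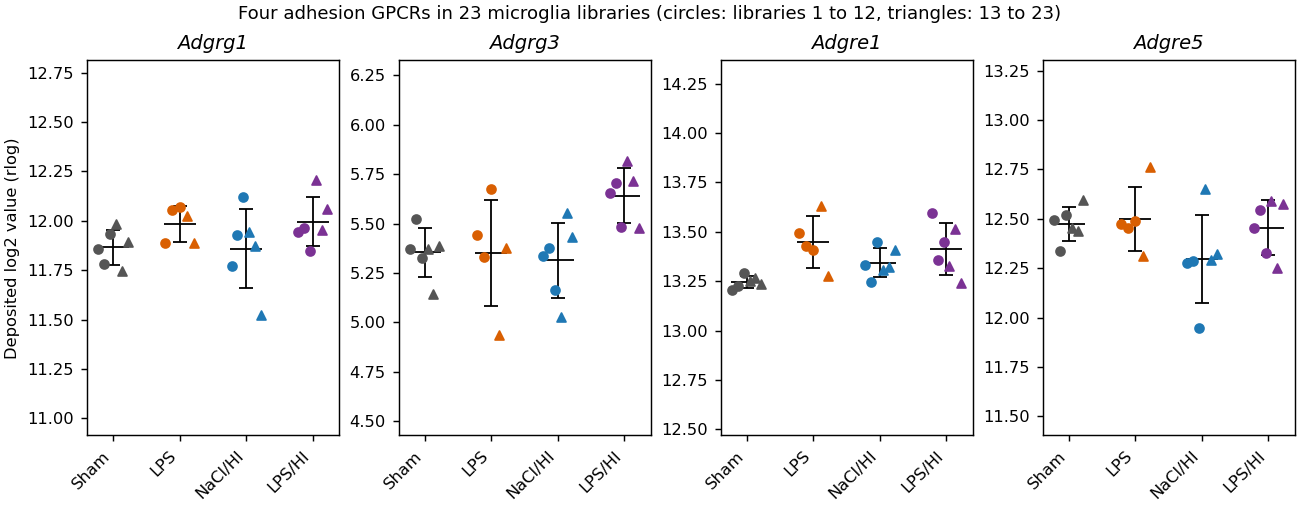
Log2 rlog values (y axis) of the 4 receptors in each sample of the 4 groups (x axis), with group means and SD, circles for the first and triangles for the second library series. Adgre1 has a mean of 13.25 in Sham and 13.45 in LPS, and the groups of each receptor overlap.

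In NaCl/HI, Adgre1 read 13.25, 13.31, 13.32, 13.33, 13.41 and 13.45, a mean of 13.34 ± 0.07 (SD, n = 6). In LPS/HI it read 13.24, 13.33, 13.36, 13.45, 13.51 and 13.60, a mean of 13.41 ± 0.13 (SD, n = 6). Both ranges overlapped those of Sham and LPS. LPS/HI lay 0.17 above Sham (SE 0.06, 95% interval 0.04 to 0.29), which did not pass in limma (adjusted p = 0.0803) and gave p = 0.00866 when the samples were permuted exactly. It was 0.20 and passed when replicate 6 of LPS/HI was left out (limma, adjusted p = 0.0423).

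NaCl/HI lay 0.10 above Sham (95% interval -0.03 to 0.22) with 5 of 6 samples above the Sham mean. Limma gave p = 0.122 unadjusted and 0.458 adjusted, whereas the exact permutation test of the gene alone gave p = 0.0108. In the first and second library series the difference was 0.10 and 0.09, with overlap in the first and none in the second. The interval of LPS/HI against LPS ran from -0.16 to 0.10. From high to low, the means of Adgre1 followed the order LPS, LPS/HI, NaCl/HI, Sham, and no pair of neighbours in it passed in limma. The genes most like it over the 23 samples, in a ranking without a test, were Cdc5l (Pearson r = 0.90), Poglut3 (r = 0.89) and Lcp1 (r = 0.88), and after subtraction of group means Hspa4 (r = 0.92), Dnttip2 (r = 0.88) and Primpol (r = 0.86).

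Adgrg3 had its highest group mean in LPS/HI, but no pair passed. The values of LPS/HI were 5.48, 5.48, 5.65, 5.71, 5.71 and 5.82, a mean of 5.64 ± 0.14 (SD, n = 6). Sham samples read 5.14, 5.33, 5.37, 5.37, 5.38 and 5.52, a mean of 5.35 ± 0.12 (SD, n = 6). All 6 LPS/HI samples lay above the Sham mean, and the highest Sham sample lay above the lowest LPS/HI samples.

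LPS values of Adgrg3 were 4.94, 5.33, 5.38, 5.44 and 5.67, with the widest spread of the groups (5.35 ± 0.27, SD, n = 5). NaCl/HI values were 5.03, 5.16, 5.34, 5.38, 5.43 and 5.55 (5.31 ± 0.19, SD, n = 6). These groups and Sham covered much the same range.

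LPS/HI differed from Sham by 0.29 (SE 0.11, 95% interval 0.06 to 0.51), from LPS by 0.29 (SE 0.11, interval 0.05 to 0.53) and from NaCl/HI by 0.33 (SE 0.11, interval 0.10 to 0.55). The adjusted p-values in limma were 0.0958, 0.203 and 0.240, while the exact permutation tests of the gene alone gave p = 0.00649, 0.0303 and 0.00866. In the first and second library series the differences were 0.21 and 0.37 from Sham, 0.13 and 0.51 from LPS, and 0.32 and 0.33 from NaCl/HI. The difference from LPS was 0.19 without LPS replicate 4. LPS against Sham gave 0.00 (95% interval -0.24 to 0.24).

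Neutrophils are cells that carry GPR97, and 13 of their marker genes were listed. Their mean per sample lay between 6.36 and 7.28 in LPS/HI, 6.22 and 6.63 in Sham, 5.97 and 6.45 in LPS, and 6.02 and 6.66 in NaCl/HI. These ranges overlapped. In LPS/HI against Sham 5 of the 13 rose in limma and 8 did not pass, beside 8.77% of all genes passing. The exact Wilcoxon test passed 3 of the 13 there, beside 9.84% of all genes. Against LPS 1 rose (1.94% of all genes) and 10 had an unadjusted p under 0.05, as 15.5% of all genes did, with a median difference of 0.67. The exact Wilcoxon test passed 0% of all genes in this pair. Against NaCl/HI none passed (0.202% of all genes), where 5 had an unadjusted p under 0.05, as 10.6% of all genes did, and the exact Wilcoxon test passed 0, as it did 0% of all genes. The 5 that rose against Sham were S100a9 (1.18), S100a8 (1.11), Mmp8 (1.04), Mmp9 (0.75) and Retnlg (0.72), with adjusted p-values in limma between 0.0193 and 0.0476, named here with the granule genes after their values were seen. Camp had a mean of 6.29 in LPS/HI and 6.16 in Sham, Ngp of 6.50 and 7.08 and Ltf of 4.73 and 4.89, none of them passing, and the means of Mpo and Elane over all samples were 2.65 and 0.33. Within LPS/HI, replicate 4 was highest in both the list mean (7.28) and Adgrg3 (5.82), but replicate 3, with a list mean of 7.01, had one of the lowest Adgrg3 values (5.48). The part of these cells in the Adgrg3 values was not tested.

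**Figure D2:**
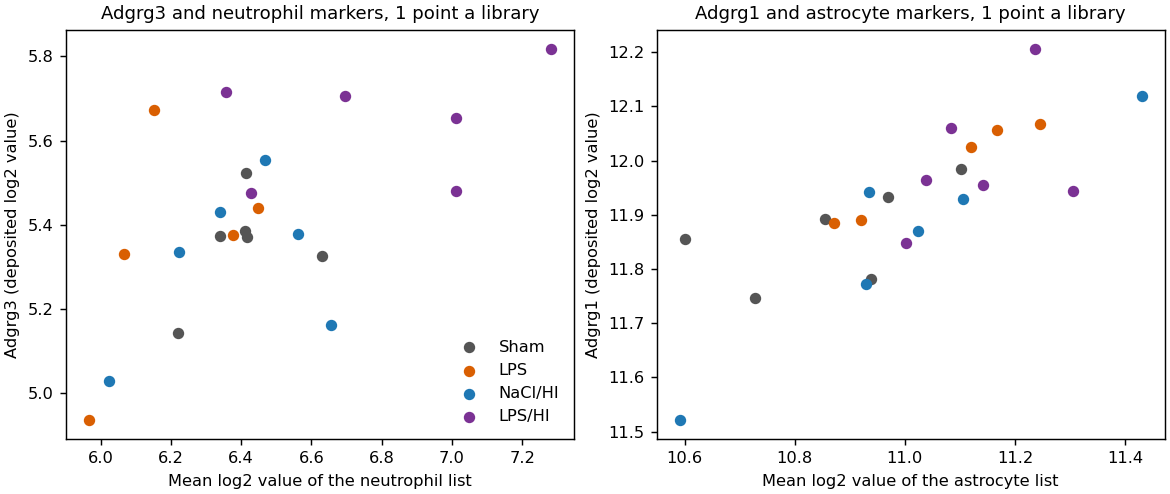
Log2 values of a receptor (y axis) against the mean log2 value of a marker list (x axis), 1 point per sample, coloured by group, for Adgrg3 with neutrophil markers and Adgrg1 with astrocyte markers. LPS/HI samples reach the highest neutrophil means, up to 7.28. Adgrg1 is lowest in NaCl/HI replicate 6, with an astrocyte mean of 10.59, whereas Sham replicate 1, at 10.60, has an Adgrg1 value of 11.86.

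The genes most like Adgrg3 over the 23 samples were LOC100361913 (r = 0.84), Il4r (r = 0.83), which encodes the interleukin-4 receptor chain, and Pdlim1 (r = 0.81). After group means were subtracted they were LOC120096111 (r = 0.80) and LOC102555808 (r = 0.78), ranked 1 and 3.

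Adgrg1 passed in no pair. Sham samples read 11.75, 11.78, 11.86, 11.89, 11.93 and 11.98 (11.87 ± 0.09, SD, n = 6), and LPS samples 11.89, 11.89, 12.03, 12.06 and 12.07 (11.98 ± 0.09, SD, n = 5). NaCl/HI samples read 11.52, 11.77, 11.87, 11.93, 11.94 and 12.12 (11.86 ± 0.20, SD, n = 6). LPS/HI samples read 11.85, 11.94, 11.95, 11.96, 12.06 and 12.21 (11.996 ± 0.12, SD, n = 6). All groups overlapped, and the lowest value, of NaCl/HI replicate 6, stood furthest from its group.

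LPS lay 0.12 above Sham (95% interval -0.05 to 0.29; limma, adjusted p = 0.331), and LPS/HI 0.13 above Sham (interval -0.03 to 0.29; adjusted p = 0.285). The interval of NaCl/HI against Sham was -0.17 to 0.15. The genes most like Adgrg1 were Lgi4 (r = 0.87), Sparcl1 (r = 0.87) and Tmem100 (r = 0.86), and after group means were subtracted Lgi4 (r = 0.88), Cbs (r = 0.88) and Aldoc (r = 0.87). Sparcl1 and Aldoc are abundant in astrocytes. The astrocyte list had its lowest mean, 10.59, in NaCl/HI replicate 6, the sample in which Adgrg1 was lowest. Its highest, 11.4, was in NaCl/HI replicate 3, in which Adgrg1 was highest of that group at 12.12. However, Sham replicate 1, with a list mean of 10.60, had Adgrg1 at 11.86, near the Sham mean. LPS/HI replicate 1, with a list mean of 11.30, had Adgrg1 at 11.94, below its group mean. The part of astrocyte RNA in the Adgrg1 values was not tested.

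Adgre5 passed in no pair either. Sham samples read 12.34, 12.44, 12.45, 12.49, 12.52 and 12.60 (12.47 ± 0.09, SD, n = 6), and LPS samples 12.31, 12.45, 12.48, 12.49 and 12.76 (12.50 ± 0.16, SD, n = 5). NaCl/HI samples read 11.95, 12.28, 12.29, 12.29, 12.32 and 12.65 (12.30 ± 0.22, SD, n = 6), the lowest group mean with the widest spread. LPS/HI samples read 12.25, 12.33, 12.45, 12.54, 12.57 and 12.59 (12.46 ± 0.14, SD, n = 6). NaCl/HI replicate 3 lay below and LPS replicate 5 above all other samples, and the groups overlapped.

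NaCl/HI lay 0.18 below Sham in mean, with 1 of 6 samples above the Sham mean (limma, log2 difference -0.18, SE 0.09, 95% interval -0.37 to 0.01, adjusted p = 0.367). This was -0.28 in the first library series and -0.07 in the second, and -0.11 without NaCl/HI replicate 3. LPS lay 0.20 above NaCl/HI (interval 0.00 to 0.40; limma, adjusted p = 0.204), or 0.13 without NaCl/HI replicate 3. For this pair the exact permutation test of the gene alone gave p = 0.139. Against Sham, LPS gave 0.03 (interval -0.17 to 0.22) and LPS/HI -0.02 (interval -0.21 to 0.17). The genes most like Adgre5 were Maml1 (r = 0.92), Themis2 (r = 0.90) and Map3k3 (r = 0.89), and after subtraction of group means Map3k3 (r = 0.94), Themis2 (r = 0.92) and Sidt2 (r = 0.91).

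**Figure D3:**
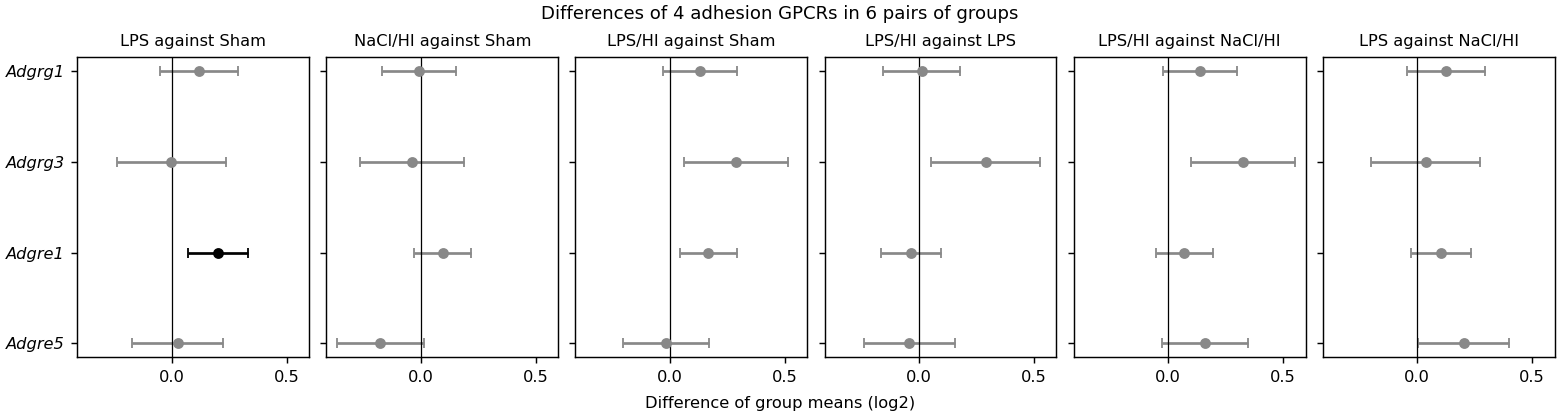
Log2 differences between groups (x axis) for each receptor (rows) in the 6 pairs (panels), with 95% intervals and black where the pair passed. Adgre1 in LPS against Sham, at 0.20, is the only black point, and all differences lie between -0.18 and 0.33.

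Beside the 1 of 4 tested receptors passing in LPS against Sham, the limma fit passed 0 of 4 in NaCl/HI against Sham, where 0.00985% of all genes passed and none of the 4 had an unadjusted p under 0.05, which 14.8% of all genes had. In LPS/HI against Sham 0 passed, with 8.77% of all genes, and Adgrg3 and Adgre1 had an unadjusted p under 0.05, as 26.8% of all genes did. In LPS/HI against LPS (1.94% of all genes) and against NaCl/HI (0.202%) 0 passed and Adgrg3 alone had an unadjusted p under 0.05, beside 15.5% and 10.6% of all genes. In LPS against NaCl/HI (8.98%) 0 passed and 1, Adgre5, had an unadjusted p under 0.05, beside 23% of all genes. In LPS against Sham that share was 32%, and Adgre1 alone of the 4 was among them. The interaction of LPS with HI (1.08%) passed in 0, with an unadjusted p under 0.05 for Adgrg3 and 15.1% of all genes, whose LPS difference was 0.33 larger with HI than without (limma, adjusted p = 0.330). The exact Wilcoxon rank-sum test passed Adgre1 in LPS against Sham (19.1% of all genes) and 0 of the 4 in LPS/HI against Sham (9.84%) and in the remaining pairs (0%). No tested receptor had groups without overlap in any pair, which 13.9% of all genes had in LPS against Sham, 1.01% in NaCl/HI against Sham and 6.37% in LPS/HI against Sham. That share was 4.17% in LPS/HI against LPS, 1.33% in LPS/HI against NaCl/HI and 7.31% in LPS against NaCl/HI. None of the 4 had a fold above 2 in LPS against Sham, as 0.069% of all genes did with an adjusted p under 0.05.

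Among themselves, Adgre1 and Adgre5 had r = -0.62 over the 23 samples after group means were subtracted, and the other pairs of the 4 receptors lay between -0.27 and 0.06. These points share groups, libraries and the variables removed before deposit, and the values are a description.

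Of 26 further adhesion receptor genes listed, 24 were in the table. In LPS against Sham 3 rose and 5 fell, where 17.8% of all genes passed and 10.2% were higher in LPS, and their median difference was -0.04 beside -0.01 over all genes. Adgre4, a relative of Adgre1 that is made by myeloid cells, had means of 5.91 ± 0.16 (SD, n = 6) in Sham, 6.33 ± 0.23 (n = 5) in LPS, 6.06 ± 0.22 (n = 6) in NaCl/HI and 6.55 ± 0.16 (n = 6) in LPS/HI. It rose by 0.42 in LPS against Sham (limma, adjusted p = 0.0194), a call lost without LPS replicate 1 or 3 (adjusted p of up to 0.0671). It rose by 0.64 in LPS/HI against Sham (limma, adjusted p = 0.00314), and this held with each library left out. Its LPS/HI mean lay above its LPS mean, and this difference did not pass.

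Adgrb2, a brain angiogenesis inhibitor gene, rose by 0.24 in LPS against Sham (limma, adjusted p = 0.00678). Adgrf5 fell by 0.22, Adgrl2 by 0.24, Adgra2 by 0.21 and Adgrl4 by 0.27 in this pair (limma, adjusted p between 0.00743 and 0.0139). The calls of Adgrf5, Adgra2 and Adgrl4 were lost in the exact Wilcoxon test, which 4 of the 24 and 19.1% of all genes passed. Adgrf5, Adgrl4 and Adgra2 are known from endothelium. Of the 6 endothelial markers measured, 1 rose and 2 fell in this pair, beside 17.8% of all genes passing, and their mean per sample lay between 11.5 and 11.7 in LPS and between 11.6 and 11.8 in Sham. The part of endothelial RNA was not tested. In LPS/HI against Sham 2 of the 24 rose (Adgre4 and Celsr1) and 1 fell (Adgrg6), beside 8.77% of all genes, and this number of 3 was 1 without Sham replicate 1 or without LPS/HI replicate 2, 4 or 5. Of the 24, 2 rose and 0 fell in LPS/HI against LPS, beside 1.94% of all genes, as did 2 and 0 of the 6 endothelial markers. Of these markers 5 had an unadjusted p under 0.05, as 15.5% of all genes did. Their median difference was 0.27, beside 0.00 over all genes. The call of Adgrf5 (0.27; limma, adjusted p = 0.0141) was lost without LPS replicate 2 or 4, and that of Adgrl4 (0.29; limma, adjusted p = 0.0458) in 14 of the 23 fits that each left out 1 library and under 6 of 10 other settings, 1 of them the exact Wilcoxon test, which 0% of all genes passed in this pair. In LPS against NaCl/HI 2 rose and 2 fell, beside 8.98% of all genes, and the calls of Adgrb2 and Adgra2 were lost in 17 and 14 of those fits. With 1 library left out, the number passing lay between 0 and 3 in LPS/HI against LPS, and between 0 and 4 in LPS against NaCl/HI. Celsr1 and Adgrg6 are named for completeness, after their values were seen. In NaCl/HI against Sham and in LPS/HI against NaCl/HI limma passed 0, beside 0.00985% and 0.202% of all genes, and 4 and 6 genes had an unadjusted p under 0.05, as 14.8% and 10.6% of all genes did. The exact Wilcoxon test passed 0 of the 24 and 0% of all genes in both pairs.

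**Figure D4:**
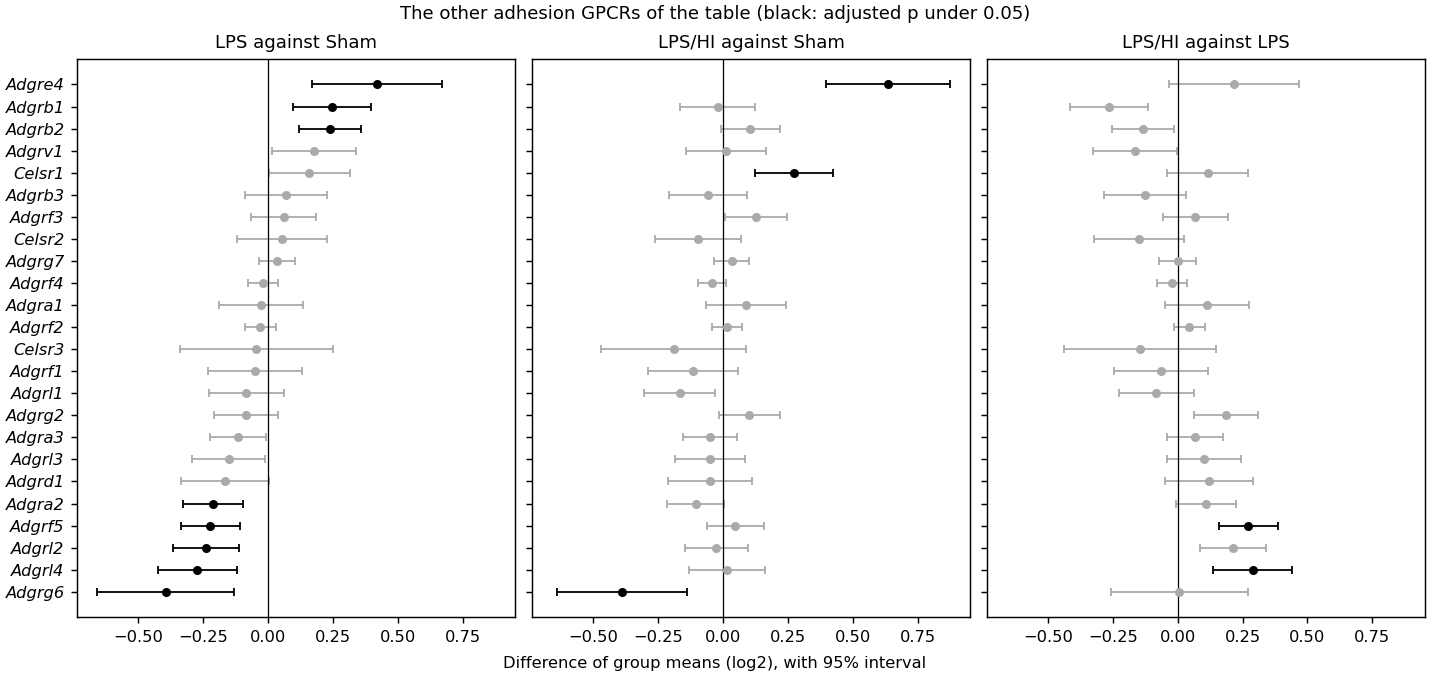
Log2 differences of group means (x axis) with 95% intervals for the 24 further adhesion receptor genes (rows) in 3 pairs of groups (panels), black where the pair passed. Adgre4 lies furthest to the right against Sham, at 0.42 in LPS and 0.64 in LPS/HI.

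Of 11 listed genes of ligands and partners of the receptors, 0 rose and 3 fell in LPS against Sham, where 17.8% of all genes passed (median difference -0.18, against -0.01 over all genes): the tetraspanin gene Cd9 at -0.34, the integrin gene Itgav at -0.24 and Itgb1 at -0.17 (limma, adjusted p between 0.0200 and 0.0320). These calls were lost for Cd9 without LPS replicate 4 or 5, for Itgb1 without LPS replicate 2 or 5, and for Itgav without LPS replicate 1, 2, 4 or 5 or Sham replicate 4, 5 or 6 (adjusted p of up to 0.0776). Col3a1, for the collagen bound by GPR56, rose by 0.29 in LPS/HI against Sham (limma, adjusted p = 0.0212), a call lost without LPS/HI replicate 5 (adjusted p = 0.0572), and was the 1 of 11 to pass there, beside 8.77% of all genes. Cd9 and Col3a1 rose by 0.39 and 0.37 in LPS/HI against LPS (limma, adjusted p = 0.0401 and 0.0175), the 2 of 11 that passed beside 1.94% of all genes. The first call was lost in 12 of the 23 fits that each left out 1 library and the second without LPS replicate 2, 4 or 5. In LPS against NaCl/HI 4 of 11 fell and 0 rose, beside 8.98% of all genes. These were Cd9 (-0.53), Col3a1 (-0.31), Itgav (-0.26) and Itgb1 (-0.16), with adjusted p-values in limma of 0.00123, 0.0137, 0.0353 and 0.0422. With 1 library left out, the first pair of calls held each time, that of Itgav was lost in 8 fits and that of Itgb1 in 14. With 1 library left out, the number passing lay between 1 and 4 in LPS against Sham, 0 and 2 in LPS/HI against LPS, and 2 and 5 in LPS against NaCl/HI.

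Of 30 signalling genes downstream of these receptors, such as those of G proteins and cyclic AMP, 4 rose and 3 fell in LPS against Sham, where 17.8% of all genes passed, with a median difference of 0.00 beside -0.01 over all genes. The 23 others did not pass. With 1 library left out, 6 to 11 passed, the highest number without LPS/HI replicate 1. Pde4b, whose product breaks down cyclic AMP, rose by 0.57 (limma, adjusted p = 4.74e-05), and Prkaca, for the catalytic subunit of protein kinase A, rose by 0.20 (adjusted p = 0.00700). Gnai2, for an inhibitory G protein subunit, rose by 0.21 (adjusted p = 0.00215) and Grk6, a receptor kinase gene, by 0.26 (adjusted p = 0.000124). Gnaq fell by 0.20 (limma, adjusted p = 0.00311) and Arhgef12, for a nucleotide exchange factor, fell by 0.19 (adjusted p = 0.00435). None of these 6 calls was lost when any library was left out. In LPS/HI against Sham 1 of the 30 rose and 2 fell, beside 8.77% of all genes passing, and this number of 3 lay between 1 and 6 with 1 library left out. The value of Pde4b was 0.37 (limma, adjusted p = 0.00781), a call lost in the exact Wilcoxon test, and the call of Gnaq was lost in 10 of the 23 fits that each left out 1 library. In LPS/HI against LPS 1 of the 30 rose, Arhgef12 by 0.22 (limma, adjusted p = 0.0103), beside 1.94% of all genes. It also passed the interaction at 0.31 (limma, adjusted p = 0.0209), as 1.08% of all genes did, but not without LPS replicate 2 or 4. In LPS against NaCl/HI 3 of the 30 rose and 1 fell, beside 8.98% of all genes. In LPS/HI against NaCl/HI 1 rose, beside 0.202%, and in NaCl/HI against Sham 0 passed, beside 0.00985%.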

How the data were processed

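RNA of CD11b/c bead-isolated microglia was measured in 23 libraries, grouped by their sample titles. The authors prepared libraries with a TruSeq RNA kit, checked reads with FastQC 0.11.9 and MultiQC 1.14, quantified them with kallisto 0.48.0 on mRatBN7.2 transcripts, passed the estimates through tximport to DESeq2, dropped genes under 10 counts and summed protein-coding genes of the same symbol. They took the rlog, and with sva and limma they then subtracted 3 surrogate variables. In the deposited table each of 20301 genes has a log2 value per library. No counts entered this work, so depth and counting error are unknown.

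All groups were fitted at once with limma 3.58.1 in R 4.3.3, with a variance trend and with residual degrees of freedom lowered from 19 to 16 for the removed variables, since the residuals spanned 16 dimensions. Tests were two-sided, with Benjamini-Hochberg adjustment over all genes of a comparison, and passed means an adjusted p under 0.05. Variables were subtracted before the tests, so p-values, those of exact tests included, can be too low. The labels do not say that same-group samples came from separate litters, so p-values cover only the spread between these samples. Exact two-sided permutation and Wilcoxon rank-sum tests were run beside limma. The fifth listed gene and some single genes are not reported here. Pairs of groups share samples. Members, gene lists and tests were chosen with earlier results of these data known. Named from each list were genes passing in any pair, at most 6 per list in order of adjusted p, and for each member the 3 genes of highest Pearson correlation, before and after group means were subtracted. Figures and summaries used Python 3.11.15, pandas 2.3.3 and matplotlib 3.10.9. Gene order and promoter sequences are of RefSeq GRCr8, another build than that of the files. Alternatives were 19 degrees of freedom, no trend, robust variances, a fit of only the groups compared, a replicate block, a block of library series, dropping the lowest 25% of genes, centring on library medians, quantile normalization, a fold above 2, the exact tests and each library left out.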

Additional observations from a re-analysis of the deposited data

How the results depend on the processing

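The count of members passing in LPS against Sham, 1 (Adgre1), became 0 when only the groups compared were fitted, under the replicate block, after quantile normalization and when a fold above 2 was also required, and lay between 0 and 1 when single libraries were left out. In LPS/HI against Sham the count of 0 became 1 with 19 residual degrees of freedom and lay between 0 and 1 with libraries left out. The cause was not tested. Of 33 pairs of same-numbered samples, 9 had deviations from their group means that correlated above 0.1 (range -0.475 to 0.470). Of 23 libraries, 5 correlated best with their own number. Whether the numbers pair the samples cannot be decided from this, because 3 surrogate variables were subtracted before.

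Several differences close to 0 reversed. Median centring gave 0.0137 for Adgrg3 in LPS against Sham and, for Adgrg1, -0.0200 in LPS/HI against LPS and -0.0142 in the interaction, and quantile normalization gave 0.0685 for Adgrg3 in LPS against Sham. With libraries left out, Adgrg3 ranged from -0.0824 to 0.102 in LPS against Sham, from -0.0438 to 0.140 in LPS against NaCl/HI and from -0.0862 to 0.0187 in NaCl/HI against Sham. Adgre5 ranged from -0.0401 to 0.0718 in LPS against Sham, from -0.0446 to 0.0238 in LPS/HI against Sham and from -0.0888 to 0.0230 in LPS/HI against LPS. Adgrg1 ranged from -0.0583 to 0.0612 in NaCl/HI against Sham, from -0.0307 to 0.0408 in LPS/HI against LPS and from -0.0499 to 0.0696 in the interaction, and Adgre1 from -0.0768 to 0.0124 in LPS/HI against LPS. None of these passed. The unknown depth limits what can be said of weakly expressed genes, which the rlog draws toward their mean.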

Other observations

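Adgrf5 and Adgrl2, further adhesion receptor genes that were listed for comparison, had LPS differences of opposite sign without and with HI. The mean of Adgrf5 was 11.37 ± 0.12 (SD, n = 6) in Sham, 11.14 ± 0.09 (n = 5) in LPS, 11.22 ± 0.05 (n = 6) in NaCl/HI and 11.41 ± 0.07 (n = 6) in LPS/HI. For Adgrl2 these means were 9.996 ± 0.07, 9.76 ± 0.09, 9.75 ± 0.08 and 9.97 ± 0.13. LPS was lower than Sham, whereas LPS/HI lay above NaCl/HI by 0.19 and 0.22, which did not pass (limma, adjusted p = 0.120 and 0.109). The interaction of LPS with HI was 0.42 for Adgrf5 and 0.46 for Adgrl2 (limma, adjusted p = 0.0157 for each, where 1.08% of all genes passed). Both calls held with each library left out and were lost under the replicate block. Whether the replicate numbers pair these samples is unknown. Of the 24 such genes measured 3 passed the interaction, and the call of the third, Adgrl4 (0.47; limma, adjusted p = 0.0316), was lost in 10 of the 23 fits that each left out 1 library. The mean of the endothelial list lay between 11.70 and 12.01 in LPS/HI, 11.45 and 11.73 in LPS, 11.57 and 11.71 in NaCl/HI, and 11.56 and 11.83 in Sham. Of its 6 measured genes, 1 passed the interaction, beside 1.08% of all genes. An unadjusted p under 0.05 was seen in 5, as in 15.1% of all genes (limma). Their median interaction was 0.29, beside 0.01 over all genes. The part of endothelial RNA in these values was not tested.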
